A study of Rattus norvegicus with 2 samples.

Results

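The 9 genes described here encode apolipoproteins and proteins that assemble chylomicrons: the apolipoproteins Apoa1, Apoa4, Apob, Apoc2 and Apoc3, the microsomal triglyceride transfer protein Mttp, the diacylglycerol acyltransferases Dgat1 and Dgat2, and the small GTPase Sar1b. They were chosen by symbol, and each symbol occurred once among the 32883 genes listed for both libraries. They were read in single-cell RNA-seq of epithelium from the proximal jejunum of 2 male Sprague Dawley rats, described by the labels as 6 to 8 weeks old and 180 to 200 g, with 1 library per rat. Both rats had been fasted overnight and no treatment was compared, so the comparisons are between cell classes of the same 2 animals, and levels after a fat meal were not measured. The epithelium was released with EDTA and dispase, and transcripts were counted as unique molecular identifiers (UMIs), 1 tag per captured molecule near the 3′ end, so levels are given as CPM, a gene's UMIs scaled to the same total for every class, and need no correction for gene length.

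Absorptive enterocytes of the villus take up fatty acids and monoacylglycerol from dietary fat and join them again into triglyceride in the endoplasmic reticulum. Acyltransferases such as DGAT1 and DGAT2 catalyse the last step, MTTP loads the lipid onto the scaffold protein apolipoprotein B, and vesicles that need SAR1B carry the particle to the Golgi. Apolipoproteins A-I, A-IV, C-II and C-III coat the particle, and C-II activates lipoprotein lipase, the enzyme that unloads triglyceride in capillaries, whereas C-III inhibits it. In humans, loss of MTTP causes abetalipoproteinemia and loss of SAR1B causes chylomicron retention disease.

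RefSeq promoter windows, from 250 bases before to 50 bases after the annotated start on the GRCr8 build, were matched by symbol for 3 of the 9 genes. All 3 windows are shown, since no other of the 9 genes had one. Levels of Apoa4 and Apoc2 followed each other closely across cell classes, and Sar1b differed least between the classes. A link between the windows and these levels was not tested. Capitals mark the motifs found among 3 that were searched on both strands: TATAAA, the GC box GGGCGG and the HNF4 site CAAAGTCCA.
Apoa4: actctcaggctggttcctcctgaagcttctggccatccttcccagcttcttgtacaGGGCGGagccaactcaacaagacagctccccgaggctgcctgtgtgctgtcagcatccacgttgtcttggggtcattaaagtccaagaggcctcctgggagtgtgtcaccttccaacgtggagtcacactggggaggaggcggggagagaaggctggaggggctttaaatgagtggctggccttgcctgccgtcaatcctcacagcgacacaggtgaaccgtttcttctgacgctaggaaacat
Apoc2: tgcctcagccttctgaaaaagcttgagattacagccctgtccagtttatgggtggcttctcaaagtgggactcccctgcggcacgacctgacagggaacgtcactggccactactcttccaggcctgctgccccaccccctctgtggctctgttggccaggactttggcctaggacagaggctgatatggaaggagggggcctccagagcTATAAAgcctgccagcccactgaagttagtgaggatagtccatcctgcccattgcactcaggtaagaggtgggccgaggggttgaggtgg
Sar1b: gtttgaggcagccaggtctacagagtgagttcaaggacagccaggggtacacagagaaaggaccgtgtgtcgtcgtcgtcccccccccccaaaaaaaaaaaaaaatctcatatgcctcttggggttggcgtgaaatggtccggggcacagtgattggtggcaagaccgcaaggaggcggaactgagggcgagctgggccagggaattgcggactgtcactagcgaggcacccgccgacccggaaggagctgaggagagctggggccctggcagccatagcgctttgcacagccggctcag
The Apoa4 window lies at chr8:55435529-55435828 on the plus strand and holds GGGCGG starting 194 bases before the start. The Apoc2 window lies at chr1:88462316-88462615 on the minus strand and holds TATAAA starting 40 bases before the start. The Sar1b window lies at chr10:36525115-36525414 on the plus strand and holds none of the 3 motifs. Of 33469 rat promoter windows of the same length, 33.1% hold GGGCGG, 14.2% hold TATAAA and 0.391% hold CAAAGTCCA. In the GRCr8 gene order Apoa1, Apoc3 and Apoa4 are neighbours, Apoc2 lies in another cluster with Apoc4, Apoc1 and Apoe, Sar1b is next to Sec24a and Dgat2 is close to Mogat2.

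The libraries held 12033 barcodes with 99986348 UMIs (rat 1) and 8252 barcodes with 66469907 UMIs (rat 2). Cells with over 5000 UMIs, at most 40% mitochondrial UMIs and 200 to 5800 genes were kept, which left 5988 cells with a median of 12200 UMIs in rat 1 and 2230 cells with a median of 13962 UMIs in rat 2. Clusters were named by likeness to marker lists, without the 9 genes among the genes clustered: enterocytes (3986 and 1121 cells in rats 1 and 2), crypt cells (1177 and 33), goblet/Paneth cells (352 and 154), enteroendocrine cells (EECs, 22 and 11), tuft cells (14 and 130) and CFTR high expresser cells (CHEs, 8 and 73). The rats differed in cell mixture, and the median mitochondrial share of enterocytes was 14.2% in rat 1 and 25% in rat 2. The ileal bile acid binding protein gene Fabp6 stood at 1160 CPM in enterocytes of rat 1 and 0.571 CPM in rat 2, while Slc10a2, another marker of distal intestine, was at 1.16 and 0.457 CPM. The 2 libraries shared 28 barcodes, of which 4 were kept in both. In enterocytes the 6 leukocyte markers summed to 26.0 and 30.7 CPM, and Cd2 was at 0 in rat 1. In crypt cells they summed to 270 and 835 CPM, and hemoglobin and Alas2 to 332 and 5617 CPM. Their part in the results was not tested.

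The 9 genes were mainly transcripts of enterocytes. They took 5.09% of all enterocyte UMIs in rat 1 and 5.52% in rat 2, and from 0.105% to 0.730% of the UMIs of crypt cells and of the 4 secretory classes. Apoa1 alone made up 62.2% and 52.0% of the UMIs of the 9 genes in enterocytes, and Apoa4 18.6% and 32.1%. The order of levels in enterocytes began with Apoa1 and Apoa4 and ended with Sar1b and Dgat2 in both rats. Between them the order changed: Apob ranked behind Apoc2 and Apoc3 in rat 1 and ahead of both in rat 2, and Dgat1 and Mttp changed places.

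Among the coat apolipoproteins, Apoa1, which encodes the main protein of high-density lipoprotein and is also secreted on chylomicrons, was at 31648 CPM in enterocytes of rat 1 and 28670 in rat 2. It was at 434 and 429 CPM in crypt cells, 516 and 1586 in goblet/Paneth cells, 1026 and 4907 in EECs, 700 and 1088 in tuft cells, and 3613 and 1504 in CHEs. Enterocytes stood above every other class in both rats, and EECs of rat 2 and CHEs of rat 1 held the highest levels outside them.

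Apoa4, whose protein is secreted on chylomicrons, was at 9474 CPM in enterocytes of rat 1 and 17695 in rat 2, the widest gap between rats among the 9 genes in that class. Its levels were 118 and 609 CPM in crypt cells, 199 and 695 in goblet/Paneth cells, 227 and 231 in EECs, 213 and 591 in tuft cells, and 1490 and 1254 in CHEs. One of the 33 crypt cells of rat 2 held 201 Apoa4 UMIs, and without that cell crypt Apoa4 was at 301 CPM.

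Apob encodes the structural protein of the particle and was at 2068 and 2562 CPM in enterocytes. It was at 73.4 and 234 CPM in crypt cells, 62.4 and 137 in goblet/Paneth cells, 75.6 and 237 in EECs, 137 and 73.2 in tuft cells, and 683 and 265 in CHEs. The crypt level of rat 2 was 96.2 CPM without the same cell.

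Apoc2 and Apoc3, the activator and the inhibitor of lipoprotein lipase, ran close together. In enterocytes Apoc2 was at 2666 and 1591 CPM and Apoc3 at 2149 and 1456 CPM, both higher in rat 1. In crypt cells Apoc2 was at 38.1 and 20.2 CPM and Apoc3 at 25.6 and 14.0 CPM. The 4 secretory classes held 6.41 to 360 CPM of Apoc2 and 27.0 to 360 CPM of Apoc3, with CHEs of rat 1 at the top of both ranges. Without 1 cell these CHEs held 59.2 CPM of Apoc2, below EECs of rat 1 at 70.2 CPM. Their Apoc3 was then at 133 CPM, still the highest of the secretory classes.

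Mttp, which transfers triglyceride onto apolipoprotein B, was at 889 and 1281 CPM in enterocytes and 123 and 183 CPM in crypt cells. It was at 70.0 and 26.5 CPM in goblet/Paneth cells, 75.6 and 115 in EECs, 107 and 176 in tuft cells, and 273 and 38.8 in CHEs. Tuft cells and crypt cells of rat 2 thus stood at similar Mttp levels, above the other secretory classes of that rat.

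The acyltransferases differed in level. Dgat1 was at 1142 and 1247 CPM in enterocytes and Dgat2 at 199 and 191 CPM. In crypt cells Dgat1 was at 101 and 116 CPM, and Dgat2 at 14.4 and 26.4 CPM. Dgat1 ranged from 32.1 to 310 CPM and Dgat2 from 5.40 to 62.1 CPM over the 4 secretory classes. In tuft cells of rat 2 the 2 genes were equal at 62.1 CPM each.

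Sar1b, the GTPase that starts coat formation on vesicles leaving the endoplasmic reticulum, was the most evenly spread of the 9. It was at 641 and 476 CPM in enterocytes, 120 and 118 in crypt cells, 119 and 104 in goblet/Paneth cells, 135 and 180 in EECs, 99.0 and 101 in tuft cells, and 186 and 114 in CHEs. The 5 classes outside enterocytes lay between 99.0 and 186 CPM in both rats.

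In CHEs most of these transcripts came from single cells. One cell held 65.5% of the UMIs of the 9 genes in rat 1 and another 52.5% in rat 2, and without it their share of CHE UMIs was 0.301% in place of 0.730%, and 0.164% in place of 0.340%. Without that cell CHE Apoa1 was at 1584 and 806 CPM and Apoa4 at 503 and 306 CPM.

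**Figure D1:**
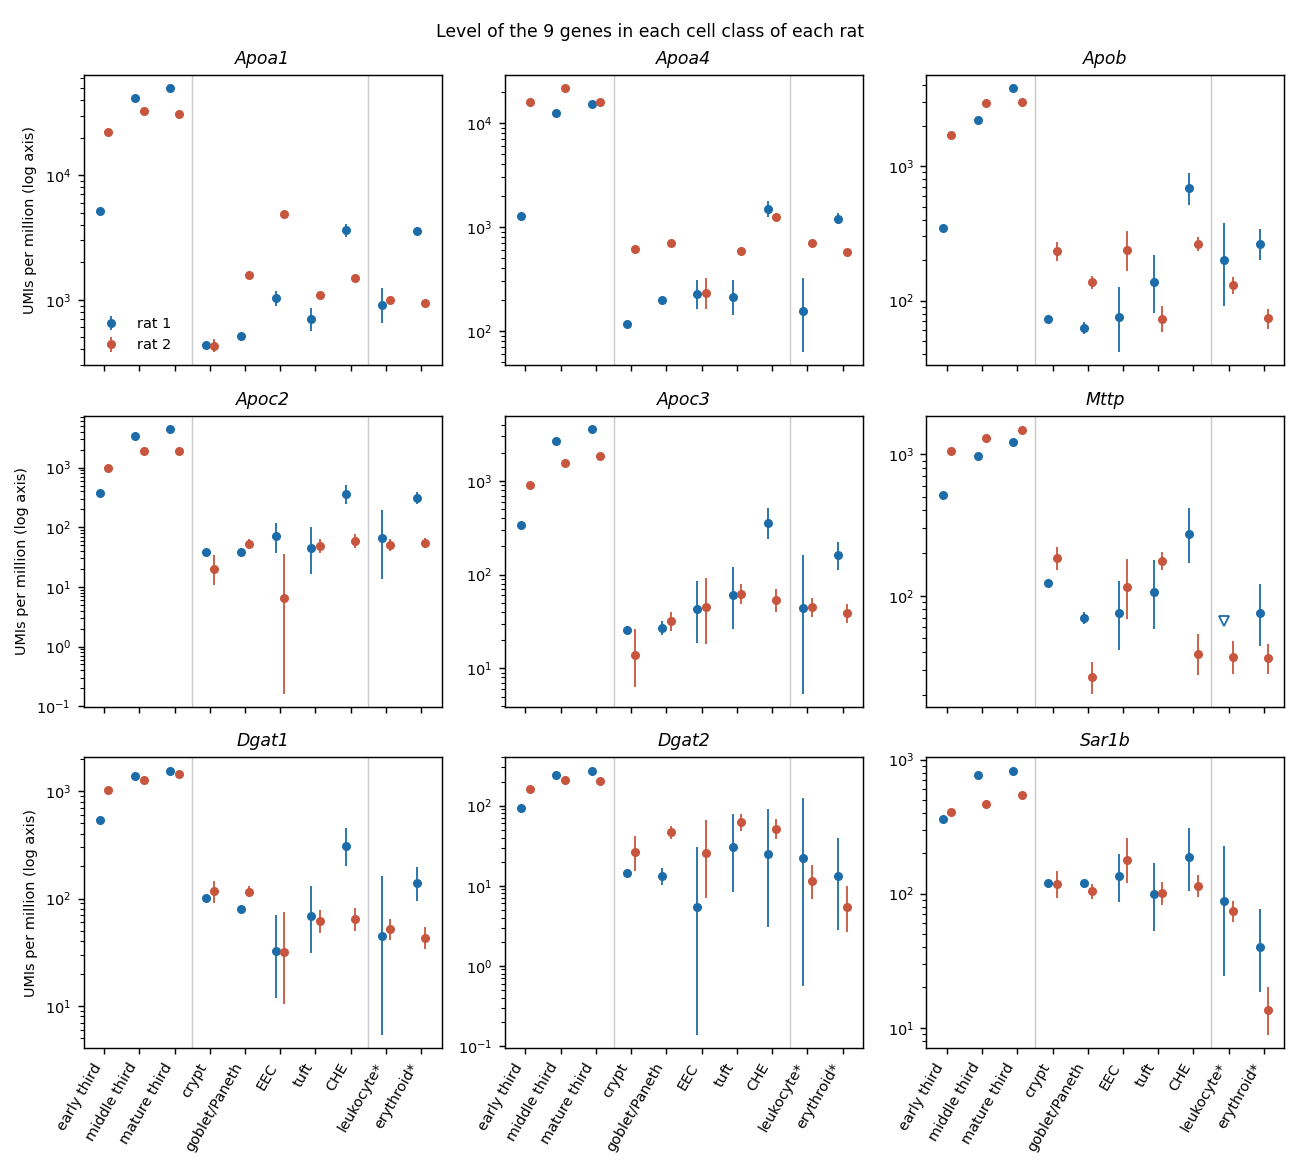
Level of each of the 9 genes (CPM, log axis) by cell class, with 1 point per rat; bars are exact Poisson intervals that cover counting error only, open triangles mark the limit set by a count of 0, and the asterisk marks leukocytes and erythroid cells, which hold background. Middle and mature enterocytes stand above crypt and secretory cells for all 9 genes, rat 2 stands above rat 1 in early enterocytes, and early enterocytes of rat 1 lie below CHEs of rat 1 for Apoa4, Apob and Apoc3 only through 1 of 8 CHEs, without which CHEs stand at 503, 193 and 133 CPM.

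To ask whether these differences exceeded the spread between rats, UMIs were summed per rat and class, and the sums were compared with edgeR's quasi-likelihood test over 11090 genes. All 9 genes passed the filter on low counts. Against crypt cells 9 of 9 were higher in enterocytes, in both rats, at adjusted p from 0.000103 to 0.00279 (edgeR, Benjamini-Hochberg adjustment over all genes). The background was 12.2% of all genes called higher in that comparison. The median log2 fold change was 4.35 over the 9 genes and -0.46 over all genes tested.

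The apolipoproteins differed most. On the log2 scale Apoc3 was 6.68 ± 0.89 (SE) higher in enterocytes than in crypt cells, Apoa1 6.50 ± 1.12, Apoc2 6.36 ± 1.05 and Apoa4 5.80 ± 1.27, and Apob 4.35 ± 0.88. The enzymes and the GTPase followed, with Dgat1 at 3.92 ± 0.60, Dgat2 at 3.78 ± 0.72, Mttp at 3.32 ± 0.70 and Sar1b at 2.67 ± 0.40. In each rat taken alone the 4 coat apolipoproteins were 5.53 to 7.27 higher and Sar1b 2.62 and 2.67 higher. The difference between these groups of genes was not tested. Since classes of 1 rat share the animal, the model was also fitted with the rat as a block, which called all 9 genes again and raised the number of all genes called higher from 1349 to 2085. With the 9 genes and the mitochondrial genes left out of the totals, 41.0% of all calls were higher in enterocytes in place of 28.4%, the median of all genes was -0.13, and the median of the 9 genes was 4.77. Crypt cells of rat 2 numbered 33, and hemoglobin transcripts were high among them.

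Against the average of the 4 secretory classes the 9 genes were again all higher in enterocytes in both rats, at adjusted p from 4.42e-06 to 0.000147 (edgeR, Benjamini-Hochberg adjustment). In this comparison 15.4% of all genes were called higher. Apoc2 was 5.16 ± 0.54 (SE) higher on the log2 scale, Apoa4 5.11 ± 0.66, Apoc3 5.00 ± 0.44, Apoa1 4.46 ± 0.54 and Apob 4.07 ± 0.47. Dgat1 was 4.28 ± 0.34 higher, Mttp 3.84 ± 0.40, Dgat2 2.89 ± 0.40 and Sar1b 2.44 ± 0.23. The median was 4.28 over the 9 genes and -0.12 over all genes, and with the 9 genes and the mitochondrial genes out of the totals 68.6% of all calls were higher in place of 50.8%, with the median of all genes at 0.21. Sar1b had the smallest and the apolipoproteins C and A-IV the largest differences.

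**Figure D2:**
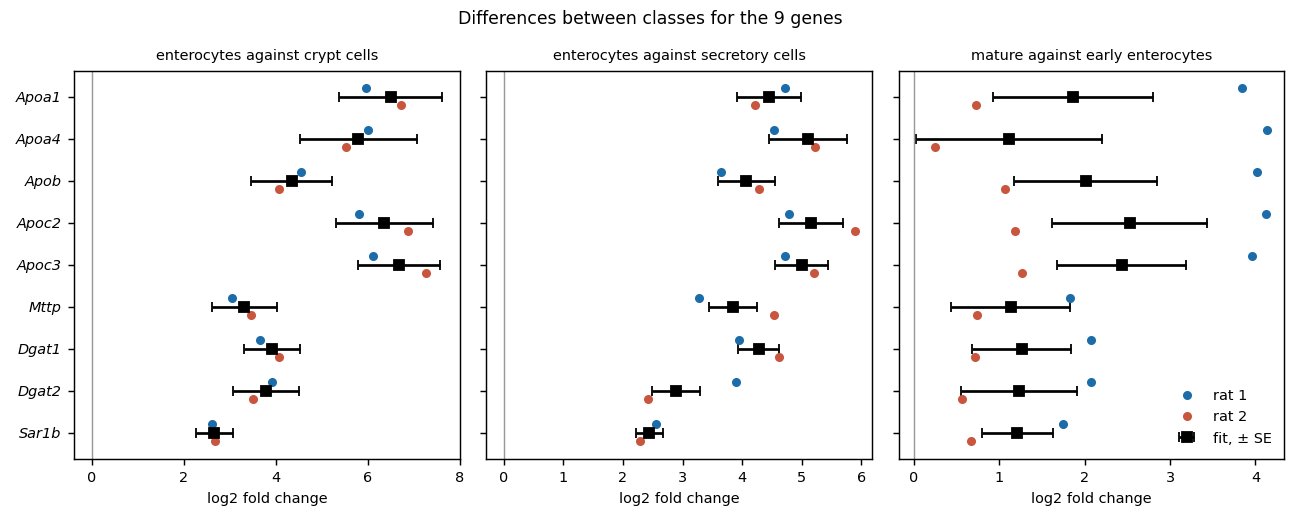
Log2 fold change of each of the 9 genes in the comparisons between cell classes, with the edgeR estimate and its standard error and the value of each rat alone. All 9 genes lie above 0 for enterocytes against crypt cells (2.67 to 6.68) and against secretory cells (2.44 to 5.16), while the values of the 2 rats lie far apart for mature against early enterocytes.

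Droplets also hold free RNA, and the most abundant transcripts of the tissue appear in cells that do not make them. Apoa1 was found in 100% of erythroid cells of rat 1 and 95.1% of rat 2 after each cell was thinned to 5000 UMIs, and in 87.5% and 81.8% of crypt cells, so its share in crypt cells was no higher than the background. Without thinning these shares were 99.2% and 100% in crypt cells, with median depths of 13158 and 20797 UMIs, against 5460.5 and 7361 UMIs in erythroid cells. Mttp had a higher share in crypt than in erythroid cells of each rat, but its intervals overlapped in rat 1 and were apart only in rat 2. It was found in 37.7% (34.9 to 40.6, exact binomial 95% interval) of thinned crypt cells of rat 1 and 51.5% (33.5 to 69.2) of rat 2. In erythroid cells it was found in 21.4% (8.30 to 41.0) and 13.6% (9.54 to 18.5). These intervals cover counting error over the cells of 1 library and no spread between rats. The difference between the classes was not tested.

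Sar1b was found in 47.4% (44.5 to 50.3) and 30.3% (15.6 to 48.7) of thinned crypt cells, against 3.57% (0.0904 to 18.3) and 7.0% (4.13 to 11) of erythroid cells. For Sar1b too the difference between the classes was not tested across rats. Unthinned, 77.9% and 78.8% of crypt cells held a Sar1b UMI. In rat 2 the 235 cells of leukocyte clusters that held at most 10 UMIs of the epithelial markers had it in 30.6% of thinned cells, near the crypt share. The 8 such cells of rat 1 had it in 37.5%, but they held 145892 CPM of hemoglobin and Alas2 and 2242 CPM of collagen transcripts against 2264 CPM of leukocyte markers.

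Each gene was also set against Apoa1. No profile of free RNA was estimated, and the source of the transcripts in each class was not tested. In enterocytes there were 2.81 Mttp UMIs per 100 Apoa1 UMIs in rat 1 and 4.47 in rat 2, and in erythroid cells 2.13 and 3.79. In crypt cells the ratio was 28.4 and 42.8, that is 10.1 and 9.57 times that of enterocytes. Sar1b was 13.7 and 16.6 times, Dgat1 6.43 and 6.25 times and Dgat2 5.30 and 9.25 times its enterocyte ratio in crypt cells. For Apoc2 the crypt ratio was 1.04 and 0.849 times that of enterocytes, and for Apoc3 0.869 and 0.642 times. The crypt ratios of Mttp, Sar1b and both acyltransferases to Apoa1 stood above those of all enterocytes, whereas those of Apoc2 and Apoc3 were closer to them. Part of this gap was present within enterocytes: early enterocytes of rat 1 stood at 3.5 times for Mttp, 3.44 for Sar1b, 2.88 for Dgat1 and 2.87 for Dgat2, and those of rat 2 at 1.06 to 1.11 times. Leukocyte-cluster cells with few epithelial UMIs stood at 4.82 and 4.47 times for Sar1b. In erythroid cells all 8 ratios were within 0.558 to 1.13 times (rat 1) and 0.803 to 1.04 times (rat 2) those of enterocytes. The 28 erythroid cells of rat 1 were uneven, with a median of 5 and a mean of 15.5 thinned Apoa1 UMIs. Their ratios without the richest cells were not computed.

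Apob was at 2.59 and 6.12 times and Apoa4 at 0.906 and 2.30 times the enterocyte ratio in crypt cells. Without the crypt cell of rat 2 named above, the values of that rat were 2.92 for Apob and 1.32 for Apoa4. In tuft cells Mttp was 5.42 and 3.62 times, Dgat2 6.93 and 8.57 times and Sar1b 6.98 and 5.59 times the enterocyte ratio. The Dgat2 value of rat 1 rested on 4 UMIs. Such ratios were not particular to crypt and tuft cells. In goblet/Paneth cells Sar1b was at 11.4 and 3.96 times and Dgat2 at 4.07 and 4.42 times. Mttp there was at 4.82 and 0.374 times, in opposite directions in the rats. Sar1b was at 6.50 and 2.20 times in EECs and at 2.55 and 4.58 times in CHEs. With the cell richest in the 9 genes left out, Sar1b was at 8.52 and 3.32 times in EECs. In CHEs it was then at 4.62 and 8.69 times. Dgat2 was found in 14.3% (1.78 to 42.8) and 25.4% (18.2 to 33.8) of thinned tuft cells, against 7.14% (0.877 to 23.5) and 2.88% (1.17 to 5.84) of erythroid cells. Only in rat 2, with 130 tuft cells, did these intervals not overlap. Tuft cells of rat 2 also held 8148 CPM of hemoglobin and Alas2 and 492 CPM of leukocyte markers, whose part in these values was not tested.

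**Figure D3:**
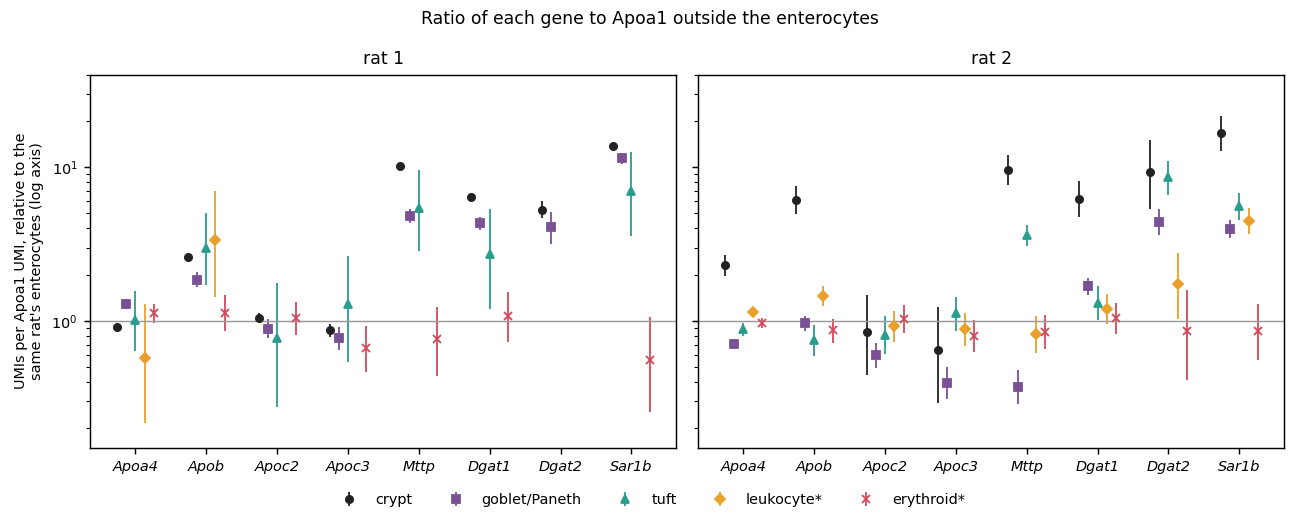
UMIs of each gene per 100 Apoa1 UMIs in crypt, goblet/Paneth, tuft, leukocyte-cluster and erythroid cells, divided by the same ratio in enterocytes of the same rat (log axis, 1 panel per rat, 1 symbol per class). EECs and CHEs are not drawn. Bars are intervals for counting error, points resting on under 5 UMIs are left out, and the asterisk marks background cells. Erythroid cells lie between 0.558 and 1.13, and crypt cells lie at 10.1 (rat 1) and 9.57 (rat 2) for Mttp and at 13.7 and 16.6 for Sar1b.

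Part of the EECs held much Apoa1 beside little or no Apoa4, a pattern chosen after its values were seen and given as a description. In rat 2, 5 of 11 EECs held 82 to 276 Apoa1 UMIs each, with 0 to 10 Apoa4 UMIs and no Apoc2. The other 6 held 3 to 16 Apoa1 UMIs. All 5 cells held 91 to 136 UMIs of Tph1, the enzyme of serotonin synthesis in enterochromaffin cells, and at most 19 UMIs each of Gip, Nts, Gcg, Sst and Cck. Summed, the 5 cells held 709 Apoa1 and 20 Apoa4 UMIs, and the other 6 held 56 and 16. Of these 6, 3 also held Tph1, at 69 to 87 UMIs. In rat 1 the highest Apoa1 count among 22 EECs was 45, with 3 Apoa4 UMIs, in a cell with 58 Tph1 UMIs. The other 21 EECs held 2 to 15 Apoa1 UMIs, among them 2 cells with 45 and 26 Tph1 UMIs.

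Enterocytes mature as they climb from the crypt to the villus tip. They were ordered by a score of 19 brush-border and villus genes, none of them among the 9, and split within each rat into 3 equal groups called early, middle and mature. The groups held 1328 or 1329 cells each in rat 1 and 373 or 374 in rat 2. The cuts fell at scores of 1.22 and 1.69 in rat 1 and at 1.43 and 1.65 in rat 2, with 296 and 864 cells (rat 1) and 308 and 353 cells (rat 2) within 0.1 of them, so the groups are ranges of a score rather than cell types. The early groups were not alike: their median score was 0.601 in rat 1 and 1.29 in rat 2.

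In rat 1 the 9 genes rose from 0.906% of UMIs in early enterocytes to 6.59% in middle and 8.10% in mature enterocytes. In rat 2 the shares were 4.42%, 6.41% and 5.71%. Apoa1 went from 5204 to 41620 and 50192 CPM in rat 1 and from 22093 to 32764 and 30926 CPM in rat 2. Apoa4 went from 1286 to 12584 and 15194 CPM in rat 1 and from 15812 to 21690 and back to 15805 CPM in rat 2. Apob went from 347 to 2216 and 3792 CPM, and from 1708 to 2924 and 3008 CPM. The step from early to middle was thus large in rat 1 and small in rat 2, and the early groups of the rats did not hold like levels.

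Of the lipase cofactors, Apoc2 went from 374 to 3406 and 4403 CPM in rat 1 and from 986 to 1872 and 1884 CPM in rat 2. Apoc3 went from 338 to 2701 and 3553 CPM, and from 910 to 1566 and 1849 CPM. Mttp rose less steeply, from 512 to 964 and 1224 CPM in rat 1 and from 1049 to 1297 and 1477 CPM in rat 2. All 3 were higher in mature than in early enterocytes of each rat.

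Dgat1 went from 541 to 1391 and 1539 CPM in rat 1, and from 1032 to 1260 and 1430 CPM in rat 2. Dgat2 went from 93.8 to 242 and 268 CPM, and from 161 to 210 and 201 CPM. Sar1b went from 362 to 764 and 817 CPM, and from 408 to 467 and 546 CPM. In CPM each of the 9 genes was higher in mature than in early enterocytes in both rats except Apoa4 of rat 2, at 15805 against 15812 CPM. After TMM scaling that difference was 0.25 on the log2 scale.

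These differences did not pass the test when the rats were taken as separate samples. Of the 9 genes 0 were called for mature against early enterocytes, at adjusted p from 0.197 to 0.729 (edgeR, Benjamini-Hochberg adjustment), and 5 had an unadjusted p under 0.05 (Apob, Apoc2, Apoc3, Dgat1 and Sar1b). Of all genes 0.00902% were called in either direction and 1493 had an unadjusted p under 0.05. DESeq2 called 1 of the 9 higher, Sar1b, and 0.261% of all genes higher (205 in either direction). With the rat as a block 3 of the 9 were called higher: Apob by 2.34 (adjusted p = 0.0347), Apoc3 by 2.31 (adjusted p = 0.0319) and Sar1b by 1.2 (adjusted p = 0.0420) on the log2 scale, in the same edgeR test. That model called 4.04% of all genes higher. Apoc2 (adjusted p = 0.0538), Dgat2 (0.0604) and Apoa1 (0.0744) missed the threshold there.

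The 2 rats gave different sizes. The log2 fold change of mature over early enterocytes was 3.84 for Apoa1 in rat 1 and 0.73 in rat 2, 4.13 and 0.25 for Apoa4, 4.02 and 1.07 for Apob, 4.13 and 1.18 for Apoc2, and 3.96 and 1.27 for Apoc3. It was 2.08 and 0.72 for Dgat1, 2.08 and 0.56 for Dgat2, 1.83 and 0.74 for Mttp, and 1.74 and 0.67 for Sar1b. The apolipoproteins changed by more than the other 4 genes in rat 1, and in rat 2 Apoa1 and Apoa4 did not. Whether the change differed between rats was not tested, since each rat gives 1 value per group.

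For middle against early enterocytes 0 of the 9 genes were called, at adjusted p from 0.740 to 0.927 (edgeR, Benjamini-Hochberg adjustment), against 0% of all genes. Unadjusted p was under 0.05 for 3 of the 9 and for 692 genes in all, and DESeq2 called none of the 9 and 2 genes in all. The fitted log2 fold changes ran from 0.82 to 2.18 and were above 0 in both rats for all 9. For mature against middle enterocytes 0 of the 9 were called as well, against 0% of all genes, with 0 of the 9 and 38 of all genes at an unadjusted p under 0.05 and no call by DESeq2. The fitted values ran from -0.09 for Apoa4 to 0.46 for Apob, and 6 of the 9 were higher in both rats.

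A finer split into 10 bins of the score showed lower starting levels for the apolipoproteins. In rat 1 the lowest bin held each apolipoprotein at 0.810% to 2.36% of its own highest bin, and Mttp, Dgat1, Dgat2 and Sar1b at 14.1% to 23.2% of theirs. In the next bin the ranges were 1.25% to 3.77% and 25.7% to 34.6%, and then 10.7% to 17.0% and 47.0% to 56.8%. The ranges of the apolipoproteins and of the other 4 genes did not overlap in any of these 3 bins. By another measure there was no such split: Apoa1, Apoa4, Mttp, Dgat1 and Dgat2 all first reached 50% of their highest level in bin 4, Sar1b in bin 3, Apoc2 and Apoc3 in bin 5 and Apob in bin 7. Apoa1 went from 512 CPM in the lowest to 48669 CPM in the highest bin of rat 1, Apoa4 from 129 to 15898 CPM, and Mttp from 291 to 1364 CPM.

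In rat 2 the lowest bin already held the apolipoproteins at 19.9% to 29.2% and the other 4 genes at 56.8% to 62.0% of their highest bin, and in the next bin the ranges overlapped. Apoa4 of rat 2 peaked at 26157 CPM in bin 3 of 10 and fell back to 13356 CPM in the highest. At the same score the rats were closer: cells scoring 1.0 to 1.2 held 2.42% of UMIs in the 9 genes in rat 1 and 2.62% in rat 2, and cells scoring 1.2 to 1.4 held 4.78% and 5.99%. Above 1.6 rat 1 was higher, at 7.92% against 5.89% for scores of 1.6 to 1.8.

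**Figure D4:**
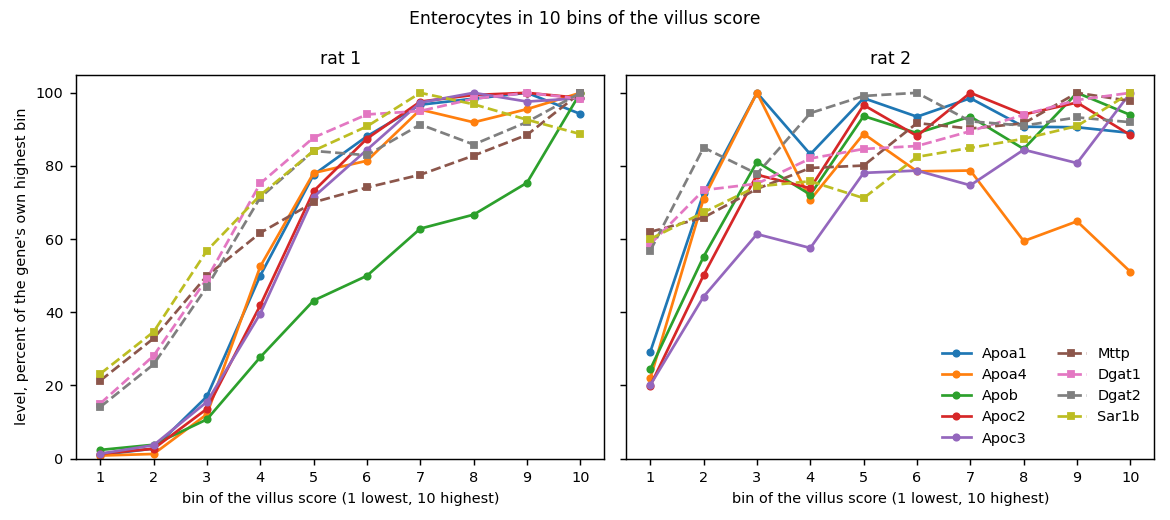
Level of each gene in 10 bins of the enterocyte maturity score within each rat, as a percent of the gene's own highest bin. In rat 1 the apolipoproteins start at 0.810% to 2.36% and the other 4 genes at 14.1% to 23.2%; in rat 2 all 9 start higher, and Apoa4 peaks in bin 3.

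Clusters of enterocytes, made without the 9 genes, were set in order of the share of UMIs that the 9 genes took, an order that was the same in both rats. There were 7, named here by their leading genes, and since their cells were clustered on genes that vary with these 9, the levels are a description. In the cluster led by Pycard the 9 genes took 0.178% of UMIs in rat 1 and 0.615% in rat 2. In the cluster led by the class II genes RT1-Db1 and Cd74 they took 11.1% and 9.03%, and in that led by the purine genes Ada and Slc28a2, which mark the villus tip, 18.0% and 14.2%. The Ada and Slc28a2 cluster held 149 and 205 cells. Its cells lay mainly in the middle and early groups of the maturity score, 110 and 22 cells in rat 1 and 84 and 96 in rat 2, although Ada, Slc28a2 and Nt5e were themselves among the 19 genes scored.

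Since Apoa1 makes up most of that share, its climb along this order follows from the order. It went from 592 and 2493 CPM in the Pycard cluster to 92559 and 64485 CPM in the Ada and Slc28a2 cluster. Apoa4 went from 144 and 1075 CPM to 68181 and 64978 CPM over the same clusters, with 502 CPM in the cluster led by LOC691352 and Papss2 in rat 2. Apob climbed from 122 and 337 CPM to 6642 and 5960 CPM. These 3 were highest in the Ada and Slc28a2 cluster.

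Dgat2 was highest there too, at 540 and 264 CPM, and the other 5 genes were not. From the RT1-Db1 to the Ada and Slc28a2 cluster Apoa4 was 2.49 times higher in rat 1 and 2.00 times in rat 2, and Apoa1 1.44 and 1.43 times. Over the same step Mttp was at 0.511 and 0.523 times its level, falling from 1086 to 555 CPM in rat 1 and from 1387 to 726 CPM in rat 2. Dgat1 was at 0.714 and 0.727 times, whereas Dgat2 was at 1.63 and 1.58 times its level. Apoc2 (0.927 and 0.972) and Apoc3 (0.950 and 0.931) stayed near theirs, and Sar1b was at 0.923 and 0.581 times. The loading enzyme Mttp and the coat gene Apoa4 thus went opposite ways over this step in both rats, as did Dgat1 and Dgat2. The median mitochondrial share of the Ada and Slc28a2 cluster was 8.88% in rat 1 and 29.2% in rat 2, and its part in the result was not tested.

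**Figure D5:**
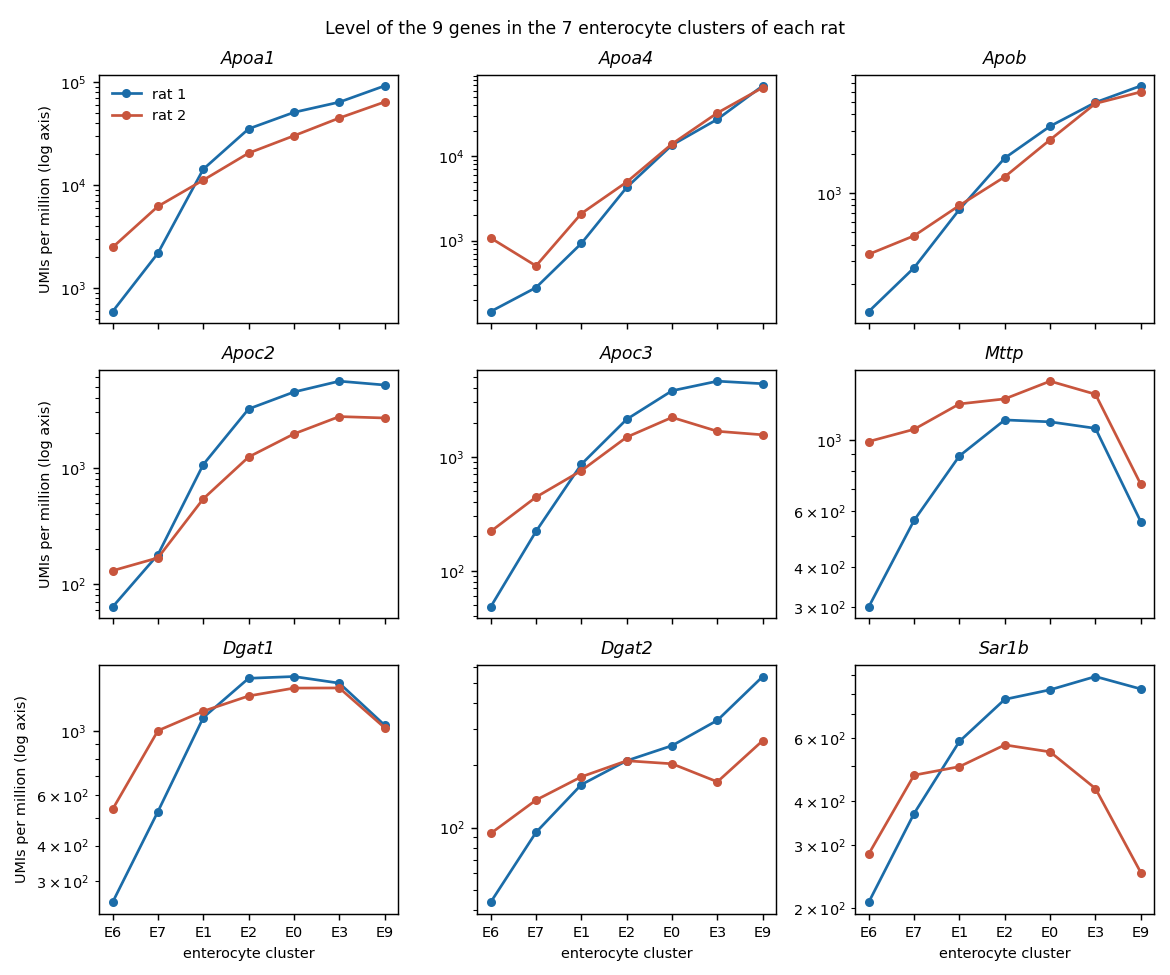
Level of each gene (CPM, log axis) in the 7 enterocyte clusters, with 1 line per rat. The clusters run along the axis from E6 (led by Pycard) through E7 (LOC691352 and Papss2), E1 (Fabp6), E2 (Tmigd1), E0 (AABR07060872.1 and the immunoglobulin gene Ighm, then Cubn) and E3 (RT1-Db1) to E9 (Ada and Slc28a2). Apoa1, Apoa4, Apob and Dgat2 reach their highest level in the last cluster in both rats, while Mttp falls from 1086 to 555 CPM (rat 1) and from 1387 to 726 CPM (rat 2) over the last step.

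Ratios within enterocytes were steadier than levels for some pairs. There were 5.74 to 5.77 Dgat1 UMIs per Dgat2 UMI in the 3 maturity groups of rat 1 and 6.00 to 7.13 in rat 2. In tuft cells of rat 2 the ratio was 1.00 (0.70 to 1.42, exact interval for counting error), and in CHEs of rat 2 it was 1.26 (0.86 to 1.86). Rat 1 gave 2.25 (0.63 to 10.00) in tuft cells, from 9 and 4 UMIs, and 12.5 (3.12 to 109) in CHEs, from 25 and 2 UMIs, so the rats did not share a direction in CHEs. Apoc3 stood at 0.79 to 0.90 per Apoc2 UMI in the maturity groups of rat 1 and 0.84 to 0.98 in rat 2. Apob per Mttp UMI was less steady, at 0.68, 2.30 and 3.10 in early, middle and mature enterocytes of rat 1 and at 1.63, 2.25 and 2.04 in rat 2. Apoa1 stood at 4.05, 3.31 and 3.30 per Apoa4 UMI in rat 1 and at 1.4, 1.51 and 1.96 in rat 2.

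From cell to cell, within enterocytes thinned to 5000 UMIs, Apoa1 and Apoa4 had a Spearman correlation of 0.91 in rat 1 (3986 cells) and 0.90 in rat 2 (1121 cells). Apoa4 and Apob had 0.86 and 0.82. Apoa4 and Mttp had 0.37 and -0.19. Cells of 1 library share its depth and its free RNA, so these are descriptions. Apoa4 and a score of 6 villus tip genes had 0.71 and 0.83, whereas Apoa4 and the maturity score had 0.75 and 0.10.

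The pathway around the 9 genes was read from lists of related genes. Of 9 genes for triglyceride and ester synthesis 5 were higher and 1 was lower in enterocytes than in crypt cells (median log2 fold change 2.34, against -0.46 for all genes, of which 12.2% were called higher). Against secretory cells 7 were higher and 1 lower (median 2.12, against -0.12 for all genes, of which 15.4% were called higher). Mogat2, the intestinal monoacylglycerol acyltransferase that supplies the substrate of DGAT, was 4.85 ± 0.62 (SE) higher than in crypt cells, Gpat3 4.52 ± 1.21 and Acsl5 3.91 ± 0.66. The gene that was lower in both comparisons was Gpat4, a glycerol-phosphate acyltransferase. Of all 11090 genes tested, 3396 were called lower against crypt cells and 1653 against secretory cells.

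Of 7 genes for apolipoprotein B lipidation and editing 6 were higher against crypt cells (median 2.85) and 6 against secretory cells (median 2.44), where 12.2% and 15.4% of all genes were higher. Pla2g12b, a phospholipase family member of the endoplasmic reticulum, was 4.27 ± 0.62 and 3.83 ± 0.36 higher on the log2 scale. Apobec1, which edits Apob mRNA, was 3.24 ± 0.65 higher than in crypt cells. Of 13 genes tested for vesicle export from the endoplasmic reticulum, which work with SAR1B, 7 and 9 were higher (medians 1.37 and 1.17), led by the coat genes Sec24d (3.23 ± 0.67) against crypt and Sec23a (4.77 ± 0.74) against secretory cells. No gene of these 2 lists was called lower, beside 3396 (crypt) and 1653 (secretory) of all 11090 genes tested.

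Of 7 lipid droplet genes tested 5 and 4 were higher (medians 2.32 and 2.48), again beside 12.2% and 15.4% of all genes and medians of -0.46 and -0.12. Cideb was 4.14 ± 0.88 higher against crypt and Cidec 3.65 ± 0.58 against secretory cells. Of 9 regulators of lipid genes 4 and 5 were higher beside the same shares of all genes (medians 1.04 and 2.37), with Creb3l3, a membrane-bound transcription factor known to control apolipoprotein genes, at 5.35 ± 0.64 and 5.24 ± 0.35. In the 3 comparisons of maturity groups 0 genes of any list were called (edgeR, Benjamini-Hochberg adjustment).

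Other apolipoproteins were scarce. Of 8 listed, Apod and Apoe passed the filter and neither was called in any comparison. Apoe, the neighbour of Apoc2 in the genome, was at 2.63 and 0.571 CPM in enterocytes and at 377 and 99.8 CPM in the leukocyte-cluster cells with few epithelial UMIs, mixed with erythroid and collagen transcripts in rat 1. Apoc1 was at 0 in enterocytes of both rats, and Apoa5, the neighbour of Apoa4, was at 0.915 and 0.457 CPM. Apoa5, Apoc1 and Apoe were thus at or near 0 in cells where their neighbours Apoa4 and Apoc2 were abundant.

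Genes with the most similar pattern were sought over the 8 class sums of each rat (3 maturity groups, crypt cells and 4 secretory classes), with the lower of the 2 rats' Pearson correlations of log2 CPM as the measure. These values are a description over 8 classes of the same animals. Apoc2 was the gene most like Apoa4 (0.985), followed by Slc31a1 (0.982), a copper transporter gene, and Tfg (0.975). Slc31a1 (0.986), Apoa4 (0.985) and Slc2a2 (0.975) were most like Apoc2. Apoa1 was most like Pls1 (0.968), Acsl5 (0.967) and Anpep (0.959), and Apob like the disaccharidase genes Mgam (0.973) and Lct (0.967) and like Gpt (0.966). Apoc3 was most like Dnase1 (0.975), Asah2 (0.975) and Amn (0.969).

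Among the genes most like Mttp were the glucose transporter gene Slc5a1 (0.968) and Slc13a2 (0.947). Dgat1 was most like Slc31a1 (0.977), Creb3l3 (0.971) and Slc51a (0.970). Dgat2 was most like Slc2a2 (0.949), Aldh3a2 (0.943) and Aqp7 (0.942), and Sar1b like Acsl5 (0.969), Abhd6 (0.963) and Ly6al (0.963). Apoa4 and Apoc2 were the only pair of the 9 that named each other.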

How the data were processed

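Cells of the proximal jejunal epithelium of 2 rats were profiled with 10x 3′ (Next GEM 3.1) single-cell RNA-seq. The deposited counts are raw UMI counts per gene and barcode that the authors made with Cell Ranger against rn6; the file headers name version 3.1.0 for rat 1 and 5.0.1 for rat 2. Other versions of the counting could change values between rats.

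The 9 genes and the lists were chosen with earlier results of these data known. Cells with over 5000 UMIs, at most 40% mitochondrial UMIs and 200 to 5800 genes were kept (49.8% of barcodes in rat 1, 27.0% in rat 2). The cells kept were integrated and clustered with Seurat 5.3.0 (2000 variable genes, 20 components), with the 9 genes and the pathway lists left out. Leukocyte and erythroid clusters were set apart, and the other cells were clustered again and named from marker lists. Of these, cells with at most 10 UMIs of 5 epithelial markers were then left out of the classes (1 in rat 1 and 100 in rat 2). Clusters with mixed markers stayed unnamed (220 and 58 cells). Scrublet (scanpy 1.11.5) called 116 doublets (1.94%) in rat 1 and 2 (0.0897%) in rat 2, and these cells were kept. UMIs were summed per rat and class and tested with edgeR 4.0.16 (TMM, quasi-likelihood, R 4.3.3) over 8 classes and 2 rats, with enterocytes as the mean of 3 maturity groups and secretory cells as the mean of 4 classes, at a Benjamini-Hochberg adjusted p of 0.05. Rats were the replicates (n = 2). The p-values rest on a spread between the 2 animals that was estimated over all 8 classes together, not for the compared classes alone. Exact intervals cover counting error only.

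The same rat gives every class, so samples pair by animal. Deviations from class means had a median correlation of 0.261 over 28 pairs of classes (range 0.0588 to 0.801), and values with the rat as a block stand beside the results they change. The test was checked on simulated counts in which 200 genes carried a true log2 difference of 3. It recovered 71.5% of these for enterocytes against crypt cells (10944 genes) and 87.5% against secretory cells (10931 genes). For mature against early enterocytes it recovered 62.5% (10959 genes). In the same order, false calls made up 7.74%, 5.91% and 5.30% of the genes called in the simulation. Each of these shares was above the threshold on adjusted p, and the crypt comparison had the highest. The simulated counts were drawn separately for each class and rat, without pairing by animal. The shares recovered and falsely called therefore do not describe paired samples. Alternatives were DESeq2 1.42.0, other scalings, filters, scores, clusterings and single rats. Named genes were the 9 genes, from each list up to 3 called genes with the largest fold change in the same direction in both rats, and for each of the 9 the 3 genes most like it. One gene that this rule names is not reported here.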

Additional observations from a re-analysis of the deposited data

Results flagged for a closer look

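Transcripts of the 9 genes also appeared in barcodes that entered no comparison. In barcodes with at most 5000 UMIs and at most 40% mitochondrial UMIs they took 1.77% of UMIs in rat 1 (4491 barcodes, median 1477 UMIs) and 1.35% in rat 2 (4074 barcodes, median 2418 UMIs). In barcodes with over 40% mitochondrial UMIs they took 1.08% in rat 1 (1507 barcodes) and 2.35% in rat 2 (1875 barcodes). The cells kept held 3.54% and 4.10%. As a share of non-mitochondrial UMIs the low-count barcodes held 2.00% and 1.58%, the barcodes rich in mitochondrial UMIs 2.40% and 6.51%, and the cells kept 4.12% and 5.19%. In rat 2 the non-mitochondrial share was thus higher in the barcodes rich in mitochondrial UMIs than in the cells kept, and in rat 1 it was lower. The source of these transcripts was not tested.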

How the results depend on the processing

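All 9 genes were called higher in enterocytes than in crypt and in secretory cells under every alternative with a test. Their median log2 fold change against crypt cells (4.35) was 5.01 with no filter on low counts, 4.77 with the 9 genes and mitochondrial genes out of totals, 5.42 with at most 20% mitochondrial UMIs, 4.78 with no epithelial requirement and 4.71 at clustering resolution 1.0. With 1 rat left out, which gives values and no test, it ran from 4.08 to 4.56. Against secretory cells (4.28) it was 4.76 with no filter and ran from 3.95 to 4.54 with 1 rat left out.

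The maturity comparisons depended on the model. For mature against early enterocytes the number of genes called (1) was 1326 with the rat as a replicate block, 205 with DESeq2, 519 with no filter, 0 with no epithelial requirement, 0 with the tip score and 2 with cuts pooled over rats. The number called among the 9 (0) was 3 with the block, 1 with DESeq2 and 2 with no filter (Apoc2 and Apoc3). Their median of 1.26 ran from 0.73 (rat 2 alone) to 3.84 (rat 1 alone). It was 2.22 without the Ada and Slc28a2 cluster, an alternative chosen after seeing the data. With the tip score it was 2.05, and with at most 20% mitochondrial UMIs 1.98. None of the 9 was called under these settings. For middle against early enterocytes 7 genes were called with the block, 2 with DESeq2 and 112 with no filter in place of 0, none of them among the 9 with the block or DESeq2, and the median of 1.21 ran from 0.71 to 3.08 with 1 rat left out. For mature against middle enterocytes the median of 0.24 was 0.73 with the tip score and ran from 0.04 to 0.43 with 1 rat left out. Apoa4 in that comparison (-0.09) was at 0.11 with the block, 0.00 with at most 20% mitochondrial UMIs, 2.11 with the tip score and 0.41 without the Ada and Slc28a2 cluster, an alternative chosen after seeing the data. The causes were not tested.

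The mean share of crypt cells with a Sar1b UMI was 78.3% without thinning in place of 38.9%, and 30.3% to 47.4% in single rats. The members' mean share of enterocyte UMIs ran from 5.09% to 5.52%. With 33 crypt cells in rat 2 and 8 CHEs in rat 1, the number of cells limits what these classes show.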

Other observations

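The 9 genes were also read in cells that entered no comparison. Cells with leukocyte markers that also held epithelial transcripts (172 in rat 1 and 72 in rat 2) held 3.95% and 4.45% of their UMIs in the 9 genes, near the enterocyte share of 5.09% and 5.52%, whereas leukocyte-cluster cells with at most 10 epithelial UMIs (8 and 235 cells) held 0.153% and 0.210%. The 8 cells of rat 1 are not clear leukocytes, with 145892 CPM of hemoglobin and Alas2 against 2264 CPM of leukocyte markers. The leukocyte markers of the mixed cells summed to 1611 and 1867 CPM. Apoa1 was at 24501 and 22767 CPM in them, against 910 and 996 CPM in the leukocyte-cluster cells with few epithelial UMIs. The unnamed cluster of mixed markers (220 and 58 cells) held 3.38% and 3.68% of its UMIs in the 9 genes, with Apoa1 at 20366 and 19577 CPM, and 92 of its 220 cells in rat 1 (41.8%) and 0 of 58 in rat 2 were called doublets. Erythroid cells (28 and 243) held 0.576% and 0.179%.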
